A study of Homo sapiens with 12 samples.

Results

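Neural cultures grown from 2 human embryonic stem cell lines, H9 and H1, were compared after the same exposure to dexamethasone, a synthetic glucocorticoid. The cultures were selected by their labels, and the comparison was chosen with earlier results of these data known. Line H9 with the 6 h, 1 µM dexamethasone condition gave 3 cultures, and line H1 with that condition gave 3, together 6 of the 12 cultures of the series. All 6 had been differentiated for 10 weeks by dual inhibition of SMAD signalling and then kept in a neural medium with BDNF, GDNF, ascorbic acid and cyclic AMP, and all 6 received the drug. The other 6, which received the DMSO vehicle, appear here only as a second set of cultures of the same lines in which each difference was measured again. Cultures of 1 group are sister cultures of a single line, so each p-value reflects only how far sister cultures varied. The effect of the line cannot be told apart from that of its differentiation run. RNA was read in bulk, and fewer cells of a type and less RNA per cell cannot be told apart. Only genes on chromosomes 1 to 22 were used.

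Dual SMAD inhibition turns pluripotent cells into neuroectoderm, which without further patterning signals tends towards forebrain. Radial glia, the neural stem cells of the developing brain, then divide to give neurogenic progenitors and neurons first and astrocytes later. The regional identity of the resulting cells is read from transcription factors that divide the neural tube: LHX2 and EMX1 in the dorsal telencephalon, DLX genes in the ventral telencephalon, OTP in the hypothalamus, LMX1A at the dorsal midline and the midbrain floor, EN1 and EN2 around the isthmus, and HOX genes from the hindbrain down the spinal cord. Wnt, BMP and Sonic hedgehog signals set these territories.

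Total counts were 20871163 to 27505804 in the H9 dexamethasone libraries and 23677289 to 25495510 in the H1 dexamethasone libraries. Mitochondrially encoded genes took 5.31% to 5.64% of the counts in H9 and 3.01% to 3.23% in H1. The part of this difference in the results was not tested, and levels are given as CPM, counts relative to the library's autosomal total after TMM scaling. H9 vehicle culture 3, with a mitochondrial share of 0.607%, stood apart from its sister cultures, so vehicle values are given without it unless both are stated. Genes that lie inside the span of another gene were often listed at 0. Of 1431 protein-coding genes wholly inside another gene's span 48.6% had no count in the 6 libraries, against 9.31% of 15658 that lay mostly outside others. A 0 is therefore written as listed at 0, and it says nothing of absence. Of the 411 marker and regional genes on the 41 lists used below, 38 were listed at 0 in all 6 libraries, 18 of them wholly inside another gene, among them SOX2. No strand setting for the counting is given in the sources used here, so a gene and an overlapping antisense gene cannot be told apart, which touches, among the genes named below, at least SNAP25, TNC, HES6, AQP4, OLIG2, PRPH, NKX2-1, FEZF1, HOXA7, HOXD9 and FEV.

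The lines differed across much of the transcriptome. Of 16199 genes tested with edgeR's quasi-likelihood test, 10403 passed at a Benjamini-Hochberg adjusted p under 0.05, which is 64.2%. The calls were split evenly, 31.9% of tested genes being higher in H9 and 32.3% in H1. The median log2 difference (H9 minus H1) over all tested genes was −0.01. Most of these differences were small, since the median absolute log2 difference was 0.41. A difference of at least 4-fold was found for 5.30% of genes, 450 of them higher in H9 (2.78%) and 409 in H1 (2.52%). The 3 and 3 cultures did not overlap for 69.0% of tested genes. The first principal component of log2 CPM separated the lines and held 87.0% of the variance. With nearly 2 in 3 genes past the test, a list whose share past the test is near 64.2% does not stand out. For each list the split between the lines and the number past 4-fold are therefore given. Each split below is to be read against the 31.9% of all tested genes higher in H9 and the 32.3% higher in H1. Of the 291 tested list members, 109 were higher in H9 and 109 in H1, and 30 and 46 of them by at least 4-fold.

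**Figure D1:**
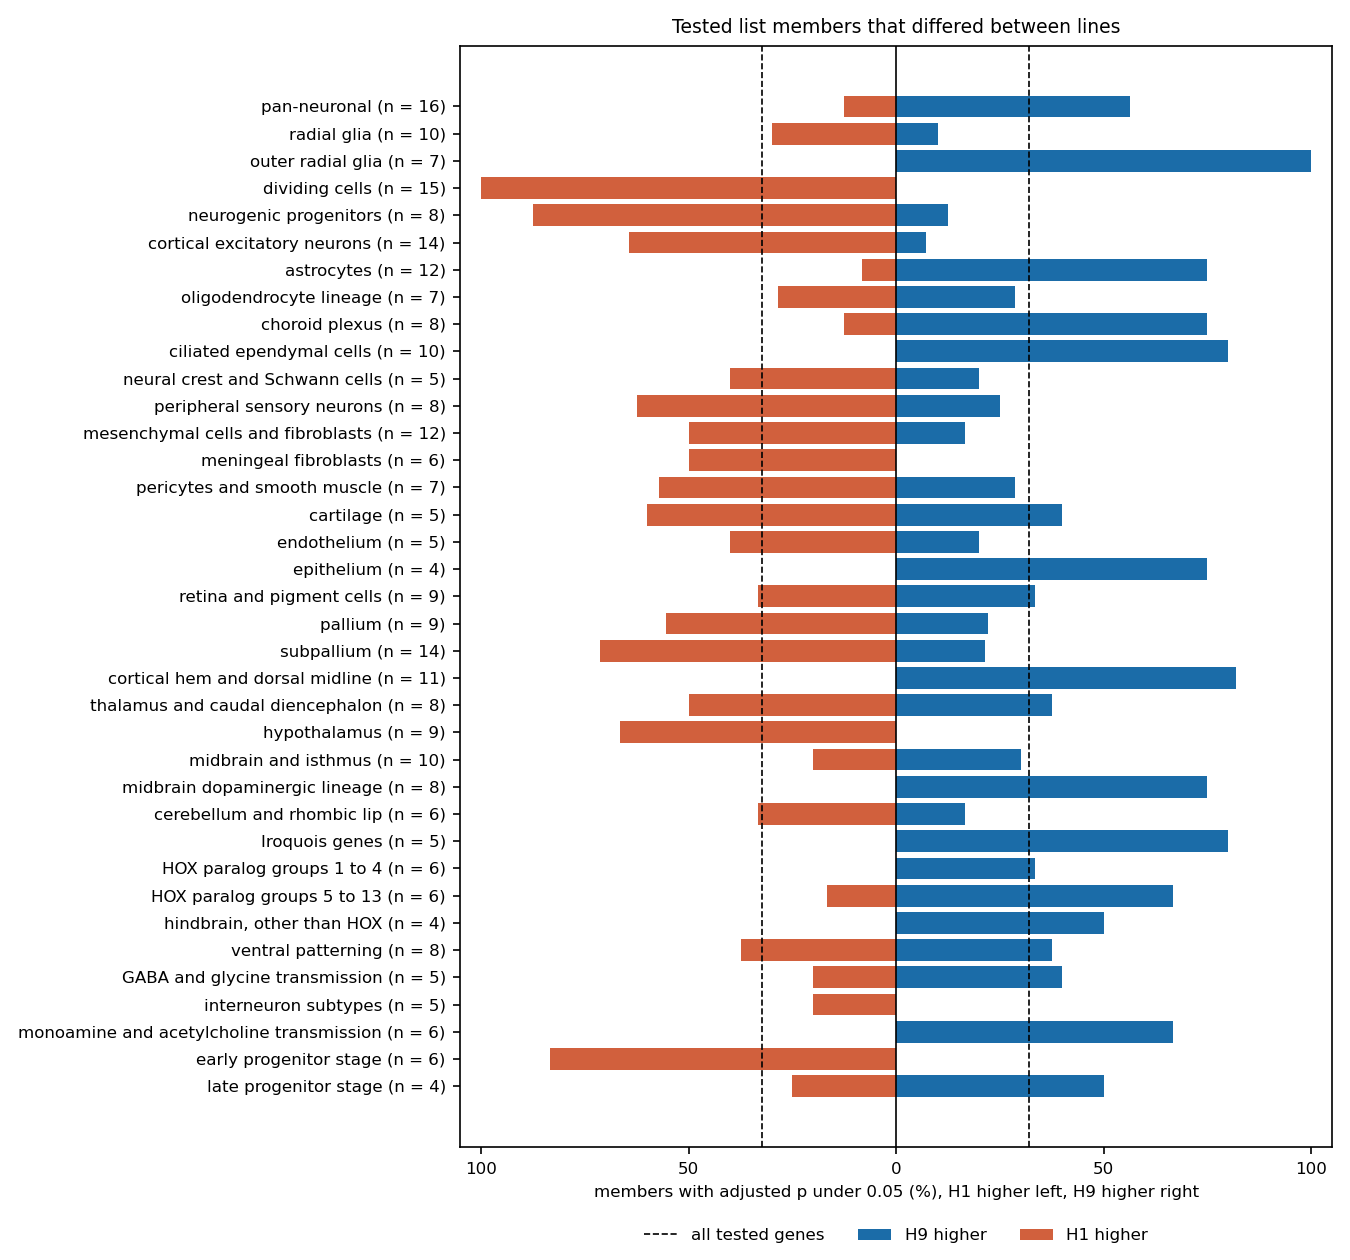
Share of the tested members of each list that passed the edgeR test (horizontal axis, %), with members higher in H1 drawn to the left and members higher in H9 to the right, for the lists with 4 or more tested members. Dashed lines mark the same shares over all 16199 tested genes (32.3% and 31.9%); dividing cells lie wholly on the H1 side and outer radial glia wholly on the H9 side.

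The mitotic genes of the dividing cell list were higher in H1. All 15 members were higher in H1 against 32.3% of all genes, 12 of them by at least 4-fold, with a median log2 difference of −2.31. MKI67, the source of the Ki-67 proliferation antigen (ENSG00000148773.13, chromosome 10, 128096659 to 128126385, minus strand), was at 24.0, 26.0 and 20.0 CPM in the H9 cultures and at 166, 152 and 152 CPM in the H1 cultures. The lowest H1 culture was thus several times above the highest H9 culture, with a log2 difference of −2.75 ± 0.09 (SE, edgeR adjusted p = 1.76e-10). TOP2A, which untangles replicated DNA, was at 36.4, 37.3 and 27.8 CPM in H9 and 159, 175 and 163 CPM in H1. CDK1, the kinase that drives entry into mitosis, was at 9.88, 10.4 and 8.29 CPM in H9 and 43.9, 52.1 and 45.2 CPM in H1. The largest difference on the list was that of AURKB, a kinase of the chromosomal passenger complex, at 1.46 to 1.89 CPM in H9 and 16.9 to 20.9 CPM in H1 (11.8-fold higher in H1). The cyclin genes CCNA2 and CCNB2 differed by −2.79 ± 0.10 and −2.68 ± 0.15 on the same log2 scale of H9 minus H1. The smallest difference was that of CCNB1, at −1.69 ± 0.08. Summed over the list, the H9 libraries held 167 to 204 CPM and the H1 libraries 889 to 933 CPM. The vehicle cultures gave a median of −2.72 for the same genes.

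The 250 bases before the RefSeq start of these genes were searched on both strands for a pair of elements known from cell cycle promoters. These are the cell cycle genes homology region (TTTGAA or TTCAAA) and the CCAAT box (CCAAT or ATTGG). Both are short and common, and a match describes the letters only. The list was chosen as mitotic genes, so the share with matches does not bear on the difference between the lines. For each member the first listed promoter was searched, while the background holds every listed autosomal promoter. Of the 15 members 12 were in the RefSeq promoter table (GRCh38.p14). A CCAAT box was found in 11 of the 12 and the homology region in 6, against 31.8% and 13.3% of 33725 autosomal promoters, and 5 of the 12 held both, against 4.64%. The 3 below, each with both elements, belong to PLK1, a mitotic kinase (chr16:23678639-23678888, plus strand), CCNB2 (chr15:59104896-59105145, plus strand) and TOP2A (chr17:40417897-40418146, minus strand). They are printed 5′ to 3′ and end at the base before the start, with the matches in capitals.
PLK1: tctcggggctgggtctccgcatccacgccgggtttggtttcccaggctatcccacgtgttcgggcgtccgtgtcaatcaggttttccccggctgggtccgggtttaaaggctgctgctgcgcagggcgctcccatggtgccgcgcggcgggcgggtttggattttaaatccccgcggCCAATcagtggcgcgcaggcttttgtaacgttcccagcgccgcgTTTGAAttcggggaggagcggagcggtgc
CCNB2: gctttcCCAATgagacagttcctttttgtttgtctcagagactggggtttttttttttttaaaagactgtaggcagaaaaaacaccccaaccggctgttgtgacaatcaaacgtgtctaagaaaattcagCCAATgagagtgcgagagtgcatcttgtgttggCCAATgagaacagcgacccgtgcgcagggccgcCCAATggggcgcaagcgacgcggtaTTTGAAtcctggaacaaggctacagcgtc
TOP2A: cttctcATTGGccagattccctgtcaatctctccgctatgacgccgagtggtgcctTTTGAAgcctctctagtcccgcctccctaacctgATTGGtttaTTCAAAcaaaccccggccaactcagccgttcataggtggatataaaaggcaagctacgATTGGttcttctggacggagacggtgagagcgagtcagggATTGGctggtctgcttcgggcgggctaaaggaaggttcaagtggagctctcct
In PLK1 and CCNB2 the homology region lies close to the start, downstream of the CCAAT boxes. PLK1 itself was at 8.49, 8.60 and 7.42 CPM in H9 and 37.8, 34.0 and 40.1 CPM in H1. The promoters of AURKB and BUB1, which were also higher in H1, held a CCAAT box and no homology region in this window.

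Genes of cells that have left the stem cell state and are about to become neurons were higher in H1 as well, in 7 of 8 tested members, 6 of them by at least 4-fold (median log2 difference −3.38). NEUROG2, a proneural transcription factor (ENSG00000178403.3, chromosome 4, 112513516 to 112516172, minus strand), was at 1.28, 1.98 and 1.67 CPM in H9 and at 29.6, 24.7 and 17.6 CPM in H1. EOMES, which marks intermediate progenitors of the cortex, was at most 2.16 CPM in the H9 cultures and at 21.2, 10.8 and 8.27 CPM in H1. The lines did not overlap for either gene, and H1 culture 1 had the highest level of both. NEUROG1, NEUROD4 and NHLH1, factors of the same cascade, were 23.6-fold, 24.4-fold and 16.2-fold higher in H1. INSM1, a zinc finger factor of newborn neurons, differed by −2.43 ± 0.12 and HES6, a neurogenic relative of the Notch targets, by −1.54 ± 0.07. PPP1R17 went the other way, with 26.8, 18.9 and 34.5 CPM in H9 and 16.5, 12.8 and 13.7 CPM in H1 (0.89 ± 0.18), but it did not pass in the vehicle cultures (0.34, edgeR adjusted p = 0.115). NEUROD1, which lies largely inside CERKL, was listed at 0 in all 6 libraries. The vehicle median of the list was −3.46.

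The list of general radial glia genes hardly separated the lines: 1 of 10 tested members was higher in H9, and 3 were higher in H1, none by 4-fold. The summed level was 5343 to 6063 CPM in H9 and 5196 to 5960 CPM in H1. VIM, an intermediate filament of radial glia and astrocytes, was at 3576, 3403 and 3865 CPM in H9 and 3203, 3118 and 3574 CPM in H1, and FABP7, a fatty acid binding protein of radial glia, was at 314 to 330 CPM in H9 and 326 to 361 CPM in H1. These levels overlapped and did not pass the test (edgeR adjusted p = 0.138 and 0.256), though VIM passed without H1 culture 3 (0.20, edgeR adjusted p = 0.0316). The members that passed were the transporter SLC1A3, higher in H9 (1.17 ± 0.14), and the receptor NOTCH1 (−1.49 ± 0.10), the stem cell surface protein PROM1 (−1.61 ± 0.11) and the hedgehog effector GLI3 (−1.84 ± 0.09), higher in H1. SOX2 and HES5 were listed at 0 in every library.

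Outer radial glia genes, which mark the stem cells of the outer subventricular zone, were higher in H9 in all 7 members, with a median of 0.63 and 1 member past 4-fold. HOPX was at 70.8, 38.8 and 62.5 CPM in H9 and 35.2, 35.8 and 26.9 CPM in H1. TNC, a matrix protein, was at 1192 to 1507 CPM in H9 and 711 to 762 CPM in H1, and MOXD1 was at 51.9 to 66.2 CPM and 37.3 to 42.8 CPM. The member past 4-fold was FAM107A, at 773, 903 and 948 CPM in H9 and 232, 147 and 173 CPM in H1 (2.25 ± 0.14). FAM107A is known as a glucocorticoid-induced gene, and without the drug, in the vehicle cultures, its difference was 2.28. In vehicle the list's median was lower, 0.44, and MOXD1 did not pass (0.02, edgeR adjusted p = 0.909). With all 6 vehicle libraries the median was 0.15.

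Genes that mark the developmental age of progenitors were also unequal. Of 6 early-stage genes 5 were higher in H1, none by 4-fold, with a median of −1.01. HMGA2, a chromatin protein of young stem cells, was at 26.0, 26.1 and 27.3 CPM in H9 and 62.7, 73.6 and 71.6 CPM in H1. IGF2BP1, an RNA-binding protein, was at 51.1, 53.8 and 54.3 CPM in H9 and 141, 157 and 165 CPM in H1. The 4 late-stage genes showed no common direction, with 2 higher in H9 and 1 in H1.

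General neuronal genes were somewhat higher in H9. Of 16 tested members 9 were higher in H9 and 2 in H1, against 31.9% and 32.3% of all genes, and 5 did not pass. None differed by 4-fold. The median was 0.45, and the summed level was 7960 to 8145 CPM in H9 and 5375 to 5965 CPM in H1. RBFOX3, which encodes the mature neuron antigen NeuN (ENSG00000167281.18, chromosome 17, 79089345 to 79516148, minus strand), was at 33.5, 26.5 and 34.4 CPM in H9 and 14.8, 10.7 and 10.2 CPM in H1 (1.40 ± 0.14). STMN2, a regulator of axonal microtubules, was at 1339, 1376 and 1305 CPM in H9 and 817, 906 and 863 CPM in H1, and SNAP25, a synaptic vesicle fusion protein, at 265, 232 and 268 CPM and 125, 123 and 111 CPM. The largest difference was that of NEFL, the light neurofilament subunit, at 828 to 989 CPM in H9 and 270 to 297 CPM in H1 (1.67 ± 0.08). Another neuronal filament gene, INA, was at 599 to 641 CPM in H9 and 588 to 637 CPM in H1 and did not pass (0.05 ± 0.06). TUBB3 and MAPT, markers used for neurons in general, were at or below 0.801 CPM in every library. TUBB3 lies mostly inside another gene's span. MAPT does not (2.32% of its span), and what its low counts measure in these files was not tested.

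The list that marks glutamatergic neurons of the cerebral cortex was mostly higher in H1, in 9 of 14 tested members with 4 past 4-fold, and 1 was higher in H9 (median −0.63). TBR1, a factor of deep-layer and newborn cortical neurons, was at 3.20, 4.86 and 5.33 CPM in H9 and 41.7, 25.0 and 18.3 CPM in H1. NEUROD2 and NEUROD6, factors of cortical excitatory neurons, were higher in H1 by more than 4-fold too (−2.35 ± 0.35 and −2.73 ± 0.34). SLC17A7, which loads glutamate into vesicles in cortical neurons, was at 2.51, 1.58 and 1.54 CPM in H9 and 13.3, 6.42 and 5.39 CPM in H1. For TBR1, SLC17A7, NEUROD2 and NEUROD6 the lines did not overlap, and H1 culture 1 lay well above H1 cultures 2 and 3. BCL11B, a layer factor that cortical neurons share with other cells, differed less, at 4.91 to 7.21 CPM in H9 and 9.90 to 11.8 CPM in H1 (−0.82 ± 0.15). RORB was the member higher in H9 (0.72 ± 0.11).

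The genes of transmitter use did not follow 1 direction. SLC17A6, the vesicular glutamate transporter of subcortical and newborn neurons, was at 39.2, 43.8 and 38.3 CPM in H9 and 45.0, 45.8 and 38.8 CPM in H1 and did not pass (edgeR adjusted p = 0.339). The third vesicular glutamate transporter, SLC17A8, which is found in scattered neurons such as those of the raphe, was at 39.8, 14.9 and 28.4 CPM in H9 and 2.91, 2.85 and 3.22 CPM in H1 (3.20 ± 0.29). So of the family's 3 genes 1 was far higher in H9, 1 far higher in H1, and 1 did not pass. GAD1, which makes GABA, was a little higher in H9 (0.37 ± 0.11) and its paralog GAD2 a little higher in H1 with overlapping cultures (−0.33 ± 0.12). The GAD2 call was lost without H9 culture 1, H9 culture 3 or H1 culture 1, with edgeR adjusted p of 0.0697, 0.117 and 0.202, and in DESeq2 (adjusted p = 0.152). The vesicular GABA transporter SLC32A1 did not pass either (0.19 ± 0.12), though it did without H1 culture 1 (0.39, edgeR adjusted p = 0.00337). GAD2 had the opposite sign in the vehicle cultures (0.34). The interneuron peptide gene SST was at 22.5 to 31.4 CPM in H9 and 26.3 to 46.6 CPM in H1 (edgeR adjusted p = 0.0594), and passed as higher in H1 without H9 culture 2 or H1 culture 3 (−0.59 and −0.58), and PVALB was listed at 0 in all 6 libraries.

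**Figure D2:**
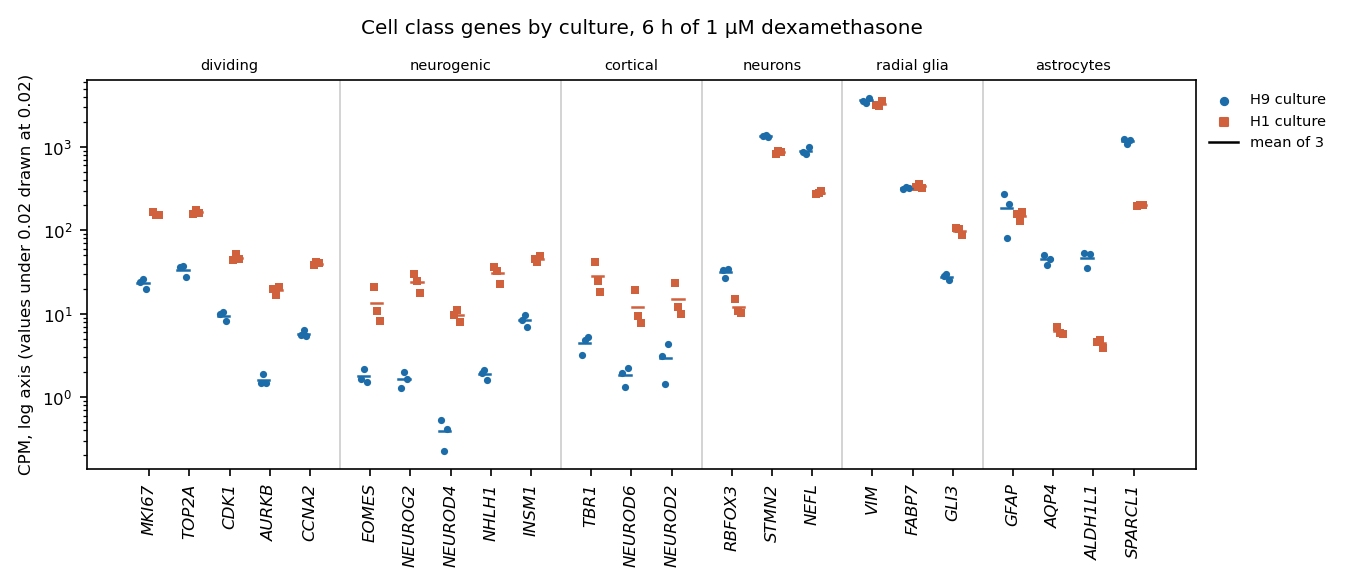
CPM of named cell class genes (vertical log axis) in each H9 culture (circles) and each H1 culture (squares), with a bar at the mean of 3. Dividing and neurogenic genes are lower in every H9 culture, VIM, FABP7 and GFAP overlap, and AQP4, ALDH1L1 and SPARCL1 are higher in every H9 culture.

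Most astrocyte genes were higher in H9: 9 of 12 tested members against 1 higher in H1, 4 of the 9 by at least 4-fold, with a median of 1.06. ALDH1L1, a folate enzyme of astrocytes (ENSG00000144908.13, chromosome 3, 126103562 to 126197994, minus strand), was at 53.5, 35.5 and 52.7 CPM in H9 and 4.61, 4.82 and 3.84 CPM in H1, 10.7-fold higher in H9. AQP4, the water channel of astrocyte endfeet, was at 51.2, 38.1 and 45.0 CPM in H9 and 6.94, 5.89 and 5.76 CPM in H1. SPARCL1, a secreted synapse-promoting protein, was at 1089 to 1238 CPM in H9 and at 198 to 203 CPM in H1 (2.57 ± 0.07), and AGT, angiotensinogen, differed by 2.88 ± 0.16. These levels did not overlap between the lines. GFAP, the intermediate filament used most often to mark astrocytes, overlapped between the lines and did not pass. It was at 272, 79.9 and 209 CPM in H9 and 156, 130 and 166 CPM in H1 (0.31 ± 0.29, edgeR adjusted p = 0.368). Its call depended on H9 culture 2, without which it was higher in H9 (0.68, edgeR adjusted p = 0.000184). In the vehicle cultures GFAP had the opposite sign and passed (−0.56, edgeR adjusted p = 0.0430). S100B was only slightly higher in H9 (0.26 ± 0.07) and did not pass in the vehicle cultures (−0.03). FGFR3 was higher in H1, at 170 to 200 CPM against 89.6 to 111 CPM (−0.84 ± 0.09). For ALDH1L1 the vehicle difference was 3.78, against 3.41 with the drug. The vehicle median of the list was 0.89.

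Oligodendrocyte lineage genes gave no common direction, with 2 of 7 tested members higher in each line and a median of −0.08. OLIG2 was at 3.42 to 4.41 CPM in H9 and at most 2.46 CPM in H1, MBP, a myelin protein, at 5.13 to 7.84 CPM and 2.30 to 2.85 CPM, and CSPG4, a precursor cell proteoglycan, at 2.00 to 2.67 CPM and 6.27 to 11.1 CPM. SOX10 and MAG were listed at 0 in all 6 libraries.

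Genes of the choroid plexus, the epithelium that makes cerebrospinal fluid, were higher in H9 in 6 of 8 tested members and in H1 in 1, with 3 past 4-fold and a median of 1.37. TTR, the transthyretin gene that choroid plexus expresses most strongly, was at 16.8, 61.4 and 141 CPM in H9 and 6.90, 2.85 and 15.1 CPM in H1. The spread of TTR within a line was large, and the lowest H9 culture lay just above the highest H1 culture (3.14 ± 0.62, edgeR adjusted p = 0.000670). FOLR1, a folate receptor of the plexus, was at 2.19, 2.39 and 3.21 CPM in H9 and 0.208, 0.357 and 0.167 CPM in H1, and the ion channel TRPM3 was at 56.8 to 78.6 CPM and 21.2 to 22.2 CPM. Genes of motile cilia, which ependymal cells carry, were higher in H9 in 8 of 10 members and in H1 in none (median 1.32). CFAP126 was at 12.2, 11.2 and 15.9 CPM in H9 and 1.70, 1.65 and 1.96 CPM in H1, PIFO at 32.0 to 35.2 CPM and 10.2 to 13.4 CPM, and RSPH1 at 15.5 to 17.8 CPM and 5.62 to 8.27 CPM. FOXJ1, the regulator of motile cilia, was at 17.0, 15.7 and 20.5 CPM and 16.0, 16.2 and 18.2 CPM and did not pass (0.08 ± 0.11, edgeR adjusted p = 0.547), though it did in vehicle (0.59, edgeR adjusted p = 0.000340). CFAP126 lies wholly inside SDHC and FOLR1 wholly inside another gene, so reads of the host cannot be told apart from theirs.

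Of the mesenchymal list, the genes of 3 collagen chains and of periostin were far higher in H1, while the fibroblast matrix genes LUM and DCN did not pass. COL6A3 had the largest fitted difference of any list member. COL1A1 (ENSG00000108821.13, chromosome 17, 50183289 to 50201632, minus strand) was at 17.8, 20.8 and 17.3 CPM in H9 and at 935, 1763 and 1521 CPM in H1, 75.4-fold higher in H1 (−6.24 ± 0.21). COL1A2, its partner chain, was at 1.92, 3.33 and 1.54 CPM in H9 and 207, 578 and 420 CPM in H1. COL6A3 was at 0.481, 0.405 and 0.292 CPM and 88.2, 196 and 157 CPM, and POSTN, a matrix protein of fibroblasts, at 2.24, 1.35 and 1.46 CPM and 135, 364 and 240 CPM. COL3A1, another fibrillar collagen, was at 145, 168 and 154 CPM in H9 and 230, 515 and 466 CPM in H1, a smaller difference (−1.37 ± 0.21). Of 12 tested members 6 were higher in H1, 4 of them past 4-fold, 2 were higher in H9, and 4 did not pass, and the median was only −0.44. The small leucine-rich proteoglycans LUM and DCN, which also mark fibroblasts, were at 22.8 to 26.2 CPM and 8.49 to 12.6 CPM in H9 and at 14.3 to 31.7 CPM and 5.86 to 16.4 CPM in H1, and neither passed (0.01 ± 0.21 and −0.01 ± 0.27). PDGFRB did not pass (−0.19 ± 0.11), though it did without H1 culture 1 (−0.32, edgeR adjusted p = 0.0104). TWIST1, a mesenchymal transcription factor, was higher in H9, at 2.07 to 2.40 CPM against 0.415 to 0.491 CPM. The list summed to 337 to 401 CPM in H9 and 1771 to 3733 CPM in H1. In vehicle its median was −1.09, and COL1A1 differed by −5.63.

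Markers of other cells differed list by list. Of 7 tested pericyte and smooth muscle genes 4 were higher in H1 and 2 in H9. RGS5, a pericyte gene, was at 12.4 to 20.7 CPM in H9 and 40.8 to 66.8 CPM in H1 (−1.88 ± 0.20), while the pericyte channel gene KCNJ8 was higher in H9 (0.61 ± 0.18). The cartilage gene COL2A1 was higher in H1 (2.46 to 3.38 CPM against 16.6 to 17.6 CPM) and ACAN higher in H9 (2.84 to 4.81 CPM against 0.312 to 0.752 CPM). Of 8 tested genes of peripheral sensory neurons 5 were higher in H1 and 2 in H9, and the first of these counts fell to 3 with limma-voom and without H9 culture 1, H1 culture 2 or H1 culture 3. PRPH, an intermediate filament of peripheral neurons, was at 2.56, 1.98 and 2.25 CPM in H9 and 35.4, 30.5 and 29.1 CPM in H1 (−3.81 ± 0.13). Of 4 tested epithelial genes 3 were higher in H9, 2 of them by at least 4-fold, and none in H1. The epithelial genes CDH1 and EPCAM were higher in H9, at 25.3 to 32.6 CPM against 1.74 to 3.82 CPM and at 6.73 to 7.48 CPM against 0.752 to 1.41 CPM. The keratins KRT5 and KRT14 were listed at 0. None of the 10 microglia and blood genes had counts enough to be tested, with a sum of at most 0.916 CPM. Of 5 tested endothelial genes 1 was higher in H9 and 2 in H1, none by 4-fold, and 2 did not pass. The endothelial list summed to 25.5 to 29.1 CPM in H9 and 33.7 to 44.8 CPM in H1, while its members PECAM1 and CDH5 were at or below 0.223 CPM. Of 2 tested genes of pluripotent stem cells 1 was higher in each line. DPPA4 was the one higher in H9, at 2.07 to 4.38 CPM against 0.376 to 0.872 CPM in H1. POU5F1 and TDGF1 were listed at 0, and NANOG was at or below 0.107 CPM.

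**Figure D3:**
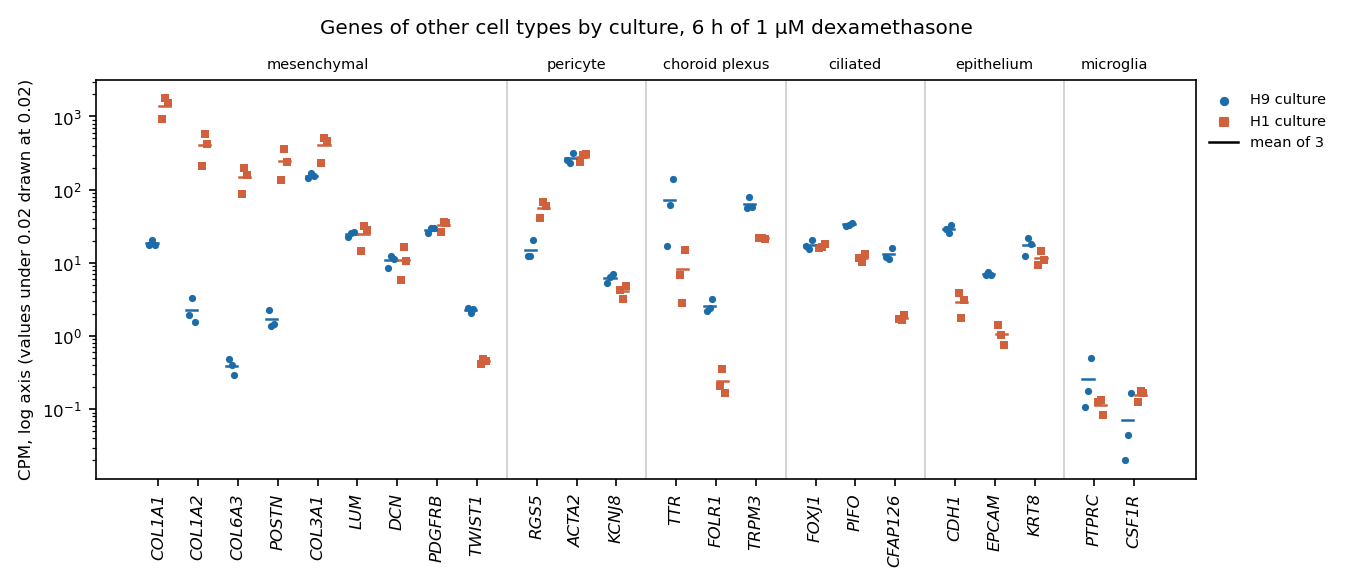
CPM of genes of non-neural and ventricle-lining cells (vertical log axis) in each H9 culture (circles) and H1 culture (squares), with a bar at the mean of 3. COL1A1, COL1A2, COL6A3 and POSTN are far higher in every H1 culture, LUM, DCN and PDGFRB overlap, and CDH1, EPCAM and FOLR1 are higher in every H9 culture.

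Genes of the pallium, the dorsal telencephalon that forms the cortex, were mostly higher in H1: 5 of 9 members, 3 of them by at least 4-fold, with 2 higher in H9 and a median of −1.32. LHX2, a factor of cortical progenitors, was at 29.5, 33.3 and 31.3 CPM in H9 and 87.0, 72.8 and 75.1 CPM in H1. EMX1, which is restricted to the pallium, was at 0.160, 0.0901 and 0.333 CPM in H9 and 4.03, 1.38 and 0.919 CPM in H1. DMRTA2, which keeps cortical progenitors dividing, differed by −2.86 ± 0.19 and NR2E1 by −1.33 ± 0.08. Other members did not follow. DMRT3, a relative of DMRTA2, was higher in H9, at 1.98, 2.93 and 2.29 CPM against 1.66, 0.624 and 1.21 CPM (1.03 ± 0.29). EMX2 was at 8.71, 15.9 and 10.2 CPM and 12.3, 11.8 and 10.8 CPM (0.01 ± 0.18), and PAX6 was slightly higher in H9, at 162 to 179 CPM against 132 to 160 CPM (0.25 ± 0.08). The PAX6 call was lost without H9 culture 2 (0.20, edgeR adjusted p = 0.0568).

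Genes of the subpallium, the ventral telencephalon that gives rise to GABAergic neurons, were higher in H1 in 10 of 14 tested members, 4 by at least 4-fold, and in H9 in 3 (median −1.30). DLX1 and DLX2, which specify these neurons, were at 24.5 to 31.9 CPM and 11.7 to 13.6 CPM in H9, and at 97.9 to 128 CPM and 48.5 to 68.0 CPM in H1. LHX6, of migrating cortical interneurons, was at 2.30, 1.67 and 1.67 CPM in H9 and 8.56, 12.7 and 10.4 CPM in H1, and DLX5 was higher in H1 by less (−1.81 ± 0.18). These DLX and LHX6 levels did not overlap. SP8 and MEIS2 were higher in H9 (1.42 ± 0.15 and 1.04 ± 0.14). GSX2 was listed at 0 in all 6 libraries, while its paralog GSX1 was higher in H1 (−2.59 ± 0.42).

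No gene of the hypothalamus list was higher in H9, and 6 of 9 tested members were higher in H1, 3 of them past 4-fold (median −1.71). OTP, of neurosecretory neurons, was at 23.4, 25.9 and 18.6 CPM in H9 and 118, 113 and 73.3 CPM in H1, and FEZF1 was at 18.6, 28.2 and 16.5 CPM and 62.8, 73.5 and 70.8 CPM. SIM1, which acts with OTP, was at 8.71, 10.2 and 4.17 CPM in H9 and 27.6, 31.2 and 12.2 CPM in H1. The OTP and SIM1 levels were lowest in culture 3 of each line, and the lines did not overlap. NKX2-1, of the ventral hypothalamus and medial ganglionic eminence, was at 0.375 to 1.58 CPM and 3.17 to 4.14 CPM. The vehicle median of the list was −1.85.

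The list of the thalamus and caudal diencephalon was divided, with 3 of 8 tested members higher in H9 and 4 in H1. SOX14, of pretectal and thalamic GABAergic neurons among others (ENSG00000168875.2, chromosome 3, 137764284 to 137766338, plus strand), was at 11.3, 6.71 and 12.6 CPM in H9 and at 0.332, 0 and 0.251 CPM in H1 (5.64 ± 0.42). LHX9 and LHX5 were higher in H1 (−1.39 ± 0.14 and −1.55 ± 0.17). Of 9 tested genes of the retina and its pigment cells 3 were higher in each line, with a median of 0.25. RPE65, a visual cycle enzyme of the pigment epithelium, was at 86.4, 86.9 and 91.4 CPM in H9 and 41.6, 44.1 and 42.6 CPM in H1, while the melanin genes PMEL and TYR were higher in H1 (−3.37 ± 0.28 and −2.38 ± 0.39). CRX, of photoreceptors, was at or below 0.0892 CPM.

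Genes of the cortical hem, roof plate and their signals were higher in H9 in 9 of 11 tested members and in H1 in none, 2 past 4-fold, with a median of 1.45. LMX1A, the roof plate factor, was at 6.73, 8.56 and 6.42 CPM in H9 and 1.58, 0.580 and 1.04 CPM in H1. The R-spondins on the list, which amplify Wnt signals, were higher in H9. RSPO2 was at 50.9, 62.0 and 62.2 CPM against 15.0, 11.5 and 11.3 CPM. RSPO1 differed by 1.48 ± 0.21 and RSPO3 by 1.45 ± 0.17. MSX1 and GDF7, a target and a member of the BMP family, were both higher by 1.70 (SE 0.12 and 0.22). The Wnt ligands themselves differed less, with 0.39 ± 0.09 for WNT2B and 0.42 ± 0.10 for WNT5A, and WNT8B, at 84.9, 129 and 117 CPM in H9 and 92.8, 73.5 and 127 CPM in H1, did not pass, though it did without H1 culture 3 (0.41, edgeR adjusted p = 0.0261). In vehicle the median of the list was 1.62.

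The midbrain and isthmus list had no common direction, with 3 of 10 tested members higher in H9, 2 in H1 and 5 that did not pass (median 0.05). OTX2, which marks forebrain and midbrain together, was at 46.2, 57.3 and 47.2 CPM in H9 and 46.2, 41.9 and 49.4 CPM in H1 (edgeR adjusted p = 0.224). EN1 and EN2, of the midbrain and anterior hindbrain, were higher in H9: EN2 was at 2.08, 2.75 and 2.37 CPM against 0.665, 0.491 and 0.668 CPM, and EN1 at 3.36, 1.49 and 3.29 CPM against 1.16, 0.312 and 0.459 CPM. PAX7, of the dorsal midbrain, was higher in H1 (−2.78 ± 0.39), and so was its paralog PAX3 with overlapping cultures (2.30 to 3.04 CPM against 2.46 to 7.45 CPM), a call that was lost without H1 culture 2 (−0.64, edgeR adjusted p = 0.0786). In vehicle PAX3 did not pass (−0.25, edgeR adjusted p = 0.356). Of the midbrain dopaminergic list 6 of 8 tested members were higher in H9, 4 past 4-fold, and none in H1 (median 1.73). LMX1B was at 5.50, 4.95 and 7.08 CPM in H9 and 0.956, 1.25 and 0.668 CPM in H1, FOXA1 at 10.2, 8.78 and 9.87 CPM and 1.16, 2.23 and 0.961 CPM, and NR4A2 at 19.2 to 20.7 CPM and 8.19 to 9.68 CPM. TH, which makes dopamine, did not follow, at 13.4, 23.5 and 15.9 CPM in H9 and 19.1, 13.8 and 19.2 CPM in H1 (0.02 ± 0.18). PITX3 was at or below 0.223 CPM, FOXA2 at or below 0.0534 CPM, and SLC6A3 was listed at 0. These levels are too low to give a direction.

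Of 6 tested genes of monoamine and acetylcholine transmission 4 passed, a share near the 64.2% of all tested genes. All 4 were higher in H9, 2 of them by at least 4-fold. Those 2, TPH2 and FEV, belong to serotonin neurons. TPH2, which makes serotonin in the brain (ENSG00000139287.12, chromosome 12, 71938846 to 72186618, plus strand), was at 8.65, 9.32 and 6.87 CPM in H9 and 0.208, 0.178 and 0.167 CPM in H1 (5.44 ± 0.25, edgeR adjusted p = 2.64e-09). FEV, the serotonergic factor, was at 1.55, 2.07 and 1.83 CPM in H9 and 0, 0.0446 and 0.0835 CPM in H1. On 119 and 3 counts, its ratio was 43.0, with a 95% counting interval of 14.4 to 212. The serotonin transporter SLC6A4 stayed at or below 0.251 CPM in both lines. TPH2 overlaps TRHDE over 40.1% of its span, and FEV lies wholly inside LINC00608. In the vehicle cultures TPH2 differed by 5.23 and FEV by 5.65.

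HOX genes, which mark hindbrain and spinal cord levels, had counts in both lines but were poorly covered. Of 39 genes 17 were listed at 0, 12 of them wholly inside another gene, and 12 could be tested. In paralog groups 1 to 4, 2 of 6 tested genes were higher in H9 and 4 did not pass (median 0.22, in vehicle 0.32). In groups 5 to 13, 4 of 6 were higher in H9, 1 was higher in H1 and 1 did not pass (median 1.41, in vehicle 0.90). HOXB2, of the hindbrain, was at 6.41, 2.88 and 7.00 CPM in H9 and 6.86, 6.15 and 4.09 CPM in H1 and did not pass (−0.07). HOXC4, HOXC10 and HOXD9 were higher in H9 by at least 4-fold, and HOXC4 and HOXC10 lie partly inside another gene on the same strand. HOXC4 was at 25.5, 13.7 and 33.3 CPM in H9 and 4.94, 2.54 and 1.92 CPM in H1, and HOXC10, of lumbar spinal levels, was at 5.34, 2.79 and 7.62 CPM in H9 and 0.0415, 0 and 0.0418 CPM in H1. On 345 and 2 counts the ratio of HOXC10 was 187, with a 95% counting interval of 51.4 to 1551, and on 37 and 3 counts that of HOXD9 was 13.4 (4.24 to 67.8). HOXD3 and HOXB7 were among the others higher in H9, and HOXA7 was the 1 tested HOX gene higher in H1, at 4.86, 1.35 and 3.50 CPM against 7.60, 8.47 and 5.35 CPM. Of 5 tested Iroquois genes, which pattern the neural tube behind the telencephalon, 4 were higher in H9, and the largest difference was that of IRX2, at 13.2 to 13.9 CPM against 5.15 to 5.51 CPM. EGR2, a hindbrain factor that also responds to neuronal activity, was at 6.94, 6.40 and 6.21 CPM in H9 and 0.956, 1.29 and 1.55 CPM in H1.

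The ligand SHH and the pathway targets GLI1, PTCH1 and HHIP differed in opposite directions, while other genes of the ventral patterning list did not follow these targets. SHH, the ventralising signal, was at least at 35.9 CPM in the H9 cultures and at 20.2, 19.5 and 36.6 CPM in H1 (0.78 ± 0.20), with overlap. GLI1, the target most directly read as pathway activity, was at 0.481, 0.405 and 0.583 CPM in H9 and 5.19, 4.68 and 5.35 CPM in H1, 10.2-fold higher in H1 (edgeR adjusted p = 3.62e-08). PTCH1, the receptor and a target, was at 65.6 to 71.8 CPM in H9 and 136 to 160 CPM in H1, and HHIP, a secreted inhibitor and target, at 3.15 to 5.62 CPM and 9.35 to 10.4 CPM. Of the 8 tested genes of the ventral patterning list, which holds these genes, 3 were higher in each line and 2 did not pass. Among its transcription factors NKX6-1 was higher in H9, like SHH, at 6.40 to 7.29 CPM against 2.33 to 2.76 CPM. OLIG2 was higher in H9 too, and NKX2-2 did not pass (0.56 ± 0.35). In vehicle GLI1 differed by −2.66 and PTCH1 by −0.73, and SHH did not pass (0.43, edgeR adjusted p = 0.114).

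**Figure D4:**
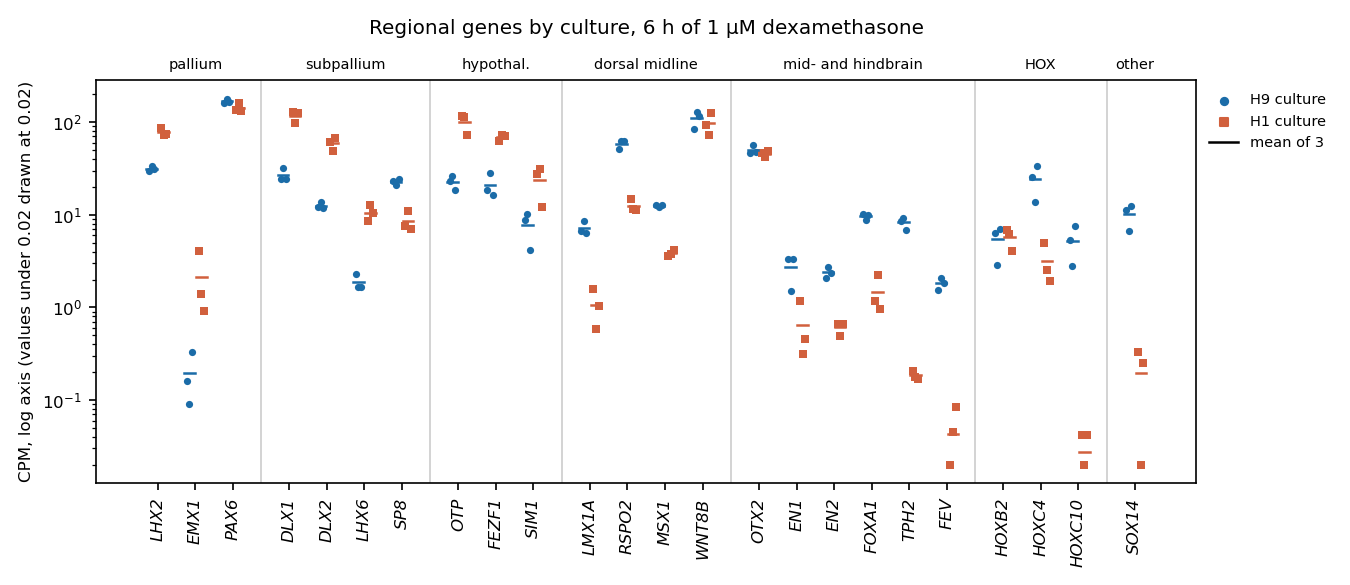
CPM of named regional genes (vertical log axis) in each H9 culture (circles) and H1 culture (squares), with a bar at the mean of 3 and values under 0.02 drawn at 0.02. Telencephalic and hypothalamic genes other than PAX6 and SP8 are higher in every H1 culture, LMX1A, RSPO2, MSX1, EN1, EN2, FOXA1, TPH2, FEV, HOXC4, HOXC10 and SOX14 are higher in every H9 culture, and WNT8B, OTX2 and HOXB2 overlap.

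The cultures of a line differed among themselves along the same lists. Of 16199 tested genes 34.1% were lowest in H9 culture 2 among the H9 cultures, but so were all 12 tested astrocyte genes, all 12 HOX genes and all 5 Iroquois genes. This culture was the highest in 13 of 15 dividing cell genes and in 7 of 9 pallium genes, against 33.4% of all genes. In H1, culture 2 was the highest in all 12 mesenchymal genes, against 34.6% of all genes, and culture 1 the lowest in 11 of the 12. Culture 1 was the highest in 7 of 9 pallium genes, against 31.0% of all genes. Each tally holds for 3 cultures of a line and was not tested. Over all tested genes, the root mean square spread of log2 CPM among sister cultures was 0.22 in H9 and 0.23 in H1, and that of the difference between line means was 0.93. On some lists the sister cultures spread as far as the lines: the summed level of HOX paralog groups 1 to 4 was 35.1 to 78.9 CPM in H9 and 25.7 to 45.6 CPM in H1.

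The 12 protein-coding genes with the largest differences in each direction, at a mean of at least 5 CPM in the higher line and without overlap, were mostly present in 1 line and near 0 in the other. Higher in H9 were CBLN2, a cerebellin that organises synapses, at 17.1, 20.9 and 16.0 CPM against 0.0415, 0.0446 and 0 CPM, and GRIN3A, an NMDA receptor subunit, at 16.0 to 17.1 CPM against 0.0831 to 0.223 CPM. SHOX2, a homeobox factor found in thalamic and hindbrain neurons, was at 23.4, 16.4 and 27.5 CPM against 0.627 to 1.66 CPM. The ratio of CBLN2, on 1168 and 2 counts, was 634, with a 95% counting interval of 175 to 5237. TXNRD2, a mitochondrial thioredoxin reductase, was 30.1-fold higher in H9. DDAH2 was listed at 0 in H1, and its counts were at least 136-fold lower there, taking 3 counts over the 3 libraries as the floor. Such a bound is one on the deposited counts, since a listed 0 does not show that a gene is silent. ZNF558, ZNF562, NPIPB2, CHI3L1, AMBN and EGR4 were others.

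Higher in H1 were TGFBI, a matrix protein induced by TGF-beta, at 0.641, 0.405 and 1.33 CPM in H9 and 47.9, 88.4 and 63.6 CPM in H1, and TFEC, a transcription factor of the family that also acts in pigment cells, at 3.43 to 7.45 CPM against at most 0.107 CPM. The zinc finger genes ZNF471, ZNF667 and ZNF578 of chromosome 19 were at 9.77 to 48.2 CPM in the H1 cultures and at most 0.180 CPM in the H9 cultures. On 3061 and 1 counts the ratio of ZNF471 was 2822, with a 95% counting interval of 506 to 1.115e+05, and on 2395 and 3 counts that of ZNF667 was 736 (252 to 3571). LCN9, CLEC2A, CSRP1, SPATA18 and PIF1 followed. CEBPZOS and CANX were listed at 0 in the H9 dexamethasone libraries, and their counts were at least 754-fold and 279-fold lower there against the same floor. CANX, at 10.8 to 14.7 CPM in H1, encodes calnexin, a chaperone that all cells use, and what its counts measure in these files was not tested. CEBPZOS overlaps CEBPZ over 74.0% of its span.

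The differences were measured again in the 6 vehicle cultures, which share no library with the comparison above but are sister cultures of the same lines. Of 796 genes that differed by at least 4-fold under dexamethasone and were tested in both, 796 had the same direction in vehicle without H9 vehicle culture 3 and 787 also passed there, and with that library included the numbers were 794 and 748. Of the called genes of any size, 97.6% of 10252 kept their direction without that library and 88.9% with it. Among list members the 74 that differed by at least 4-fold and could be compared all passed in the same direction in vehicle without H9 vehicle culture 3, and 208 of 215 called members of any size had the same sign. The share of genes that passed in vehicle was 59.6% without that library (H9 above H1 for 30.7% and H1 above H9 for 28.8%) and 30.5% with it.

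**Figure D5:**
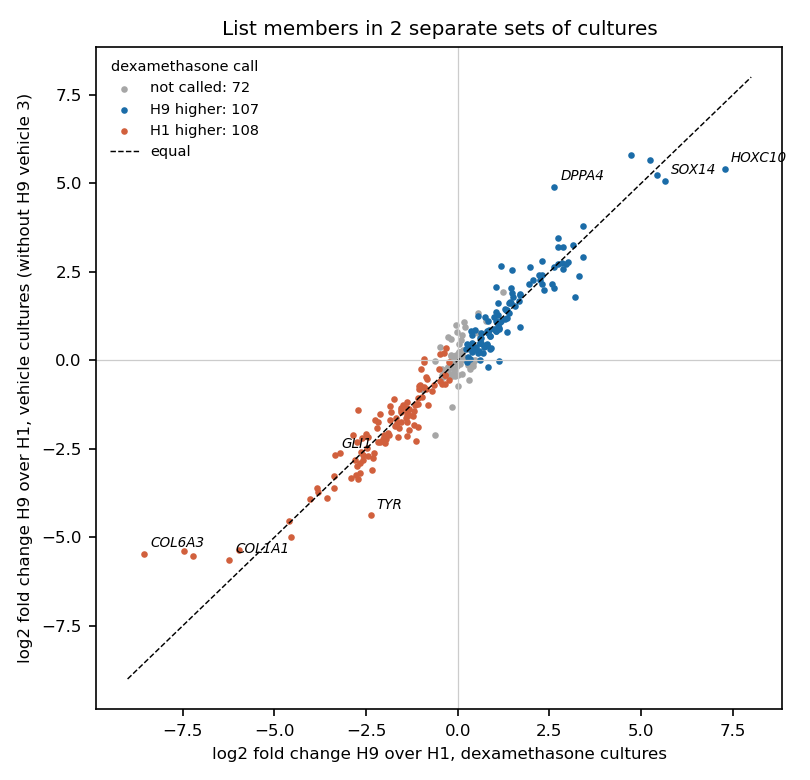
Log2 fold change of H9 over H1 for 287 list members in the dexamethasone cultures (horizontal axis) and in the vehicle cultures without H9 vehicle culture 3 (vertical axis), 1 point per gene, coloured by the dexamethasone call. The dashed line marks equal values; points far from 0 lie in the same quadrant on both axes, and COL6A3 is further from 0 under dexamethasone and DPPA4 and TYR in vehicle.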

How the data were processed

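RNA was measured by poly(A) RNA sequencing. The deposited values are whole-number counts per gene, 1 file per library. Per the submitters' processing notes, the authors used STAR 2.5.3a and HTSeq, the latter with no version, and list GRCh38.p10 and hg38 as builds. For the annotation release, the strand setting and multi-mapping reads the entry is: not given in the sources used here. Of 63925 gene IDs, 55068 were placed on autosomes with GENCODE 29. The 6 dexamethasone libraries were fitted with edgeR 4.0.16 (R 4.3.3) after its filter on low counts and TMM scaling, with the quasi-likelihood F-test, 4 residual degrees of freedom and Benjamini-Hochberg adjustment over all 16199 tested genes. A gene passed at an adjusted p under 0.05, and a second rule added an absolute log2 difference of at least 2. SE is the log2 difference over the root of F. CPM was computed from the deposited counts. Vehicle libraries were fitted separately. Counting intervals are exact (Clopper-Pearson) and, like the floor of 3 counts, cover counting error only. The procedure was tested on simulated data with 200 changed genes, far fewer than were called here. At log2 changes of 0.5, 1 and 2 it recovered 63%, 92.5% and 100% of them, with 15, 14 and 10 false calls.

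The cultures compared and the 41 gene lists were chosen with earlier results of these data known. Genes named were defining members of each list, up to 3 further members per direction with the largest difference, and the 12 protein-coding genes per direction outside the lists with a mean of at least 5 CPM. Some are given in counts only, and other members were named after their values were seen. Some genes that these rules take in are not reported here. A rule for homeobox genes was not run because protein sequences were not used here. The other settings tried were DESeq2 1.42.0, limma-voom (limma 3.58.1), RLE size factors in edgeR, other filters and scalings, a replicate block, all 12 or 11 libraries in 1 fit, and leaving out each library.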

Additional observations from a re-analysis of the deposited data

How the results depend on the processing

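Over the settings tried, 9478 to 11147 genes passed in the dexamethasone cultures other than with all 12 libraries in 1 fit, which gave 7262, and with an added absolute log2 difference of at least 1, which gave 3233 because it is a stricter rule. Without 1 library in turn the count was 9478 to 10193. The 4-fold count, 859, was 900 to 992 without 1 library, 664 with a filter at a CPM of 1 in 3 libraries, and 1480 without the filter on low counts, where 28739 genes were tested. The vehicle count, 4969, depended on single libraries. It was 9910 without H9 vehicle culture 3, and 2565, 2405 and 2362 without H1 vehicle cultures 1, 2 and 3. Of 1312 recomputed counts of list members past the test, 1212 lay within 1.5 times the main count and 100 did not, and the largest change of any was 2 members. Of the 163 named genes tested, the calls of GAD1, HOXD3, KCNJ8, S100B, SHH, WNT2B and WNT5A were lost with all 12 libraries, as were those of GAD2, PAX3 and PAX6, and those of GAD2 and HOXA7 were lost in DESeq2 (adjusted p = 0.152 and 0.0523). Calls were gained for GFAP, PDGFRB, SLC32A1, SST, VIM and WNT8B, in 15 recomputed values. The cause was not tested.

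Signs turned only for genes that had not passed. DCN was at 0.11 with limma-voom, 0.0004 without the filter and 0.036 with the replicate block, and −0.31 to 0.39 without 1 library. EMX2 was at −0.034 with limma-voom and −0.0265 with the block, and −0.29 to 0.17 without 1 library. Without 1 library FOXJ1 ranged from −0.0352 to 0.17, GFAP from −0.0572 to 0.68, HOXB2 from −0.31 to 0.24, LUM from −0.26 to 0.23 and TH from −0.24 to 0.18.

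With the replicate number as a block, 10984 genes passed in the dexamethasone cultures and 3625 in vehicle. Deviations of same-numbered dexamethasone cultures correlated at 0.093, 0.059 and 0.128, so the numbers were not taken to pair the cultures, although each culture correlated best with its own number.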
